A study of Arabidopsis thaliana with 6 samples.

Results

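The large subunit cytosolic ribosomal proteins form the 60S part of the ribosome that translates nuclear messages, and each protein is encoded in Arabidopsis thaliana by a small family of paralogous genes. A list of 59 such genes in 24 protein families (RPL3 to RPL26) was given by locus. Of these, 40 genes in 18 families had a probe paired with that gene alone in the array's annotation, out of 16548 genes named in this way. Each of the 40 had 1 such probe. Another 3 genes were on probes listed for several genes, and 16 were not analysed here, among them all listed genes for RPL3, RPL5, RPL10, RPL11 and RPL24. The study measured total RNA on 6 Affymetrix AraGene arrays from a suspension culture carrying an estrogen-inducible VND1-GFP construct, kept dark at 23 °C with shaking at 124 rpm. Induced cells received 5 µM estrogen for 24 h (3 arrays), and uninduced cells were cultured for 24 h without it (3 arrays). Both groups carry the construct, and estrogen-treated cells lacking it were not analysed here, so VND1 and estrogen itself cannot be told apart as sources of a difference. Nothing in the labels states whether the 3 samples per group were separate cultures, so a p-value here reflects spread among these samples only, and that spread may be technical.

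VND1 is a NAC transcription factor of the family that starts the differentiation of xylem vessel elements, cells that build a thick lignified wall and then digest their own contents. Ribosomal proteins fold onto ribosomal RNA in the nucleolus, and their genes are transcribed most in growing and dividing plant cells. Because the subunit needs its proteins in matched amounts, the genes are often regulated together, while paralogues of 1 family can differ in level between tissues. The places of the proteins given below are those known from ribosome structures, mainly of yeast, and the protein family of each locus follows the published Arabidopsis nomenclature. In the probe annotation 39 of the 40 are named by locus alone, and the other is PGY1, so no symbol there could be set against the family assignment.

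The deposited values are read as log2 signals. By the array numbers in their titles, the samples fall into a run of 2 (replicate 1 of each group) and a run of 4 (all others), and what the numbers mean is not stated. The median over all 38408 probes was 6.15 and 5.41 to 5.47 on the induced arrays, and 6.08 and 5.48 to 5.55 on the uninduced arrays, with the first value of each group from the run of 2. Since each run holds induced and uninduced arrays, changes are also given within each run. In bulk RNA, fewer cells with a transcript and less of it per cell cannot be told apart. The number of arrays limits the precision.

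All 40 measured genes had a lower mean signal in induced than in uninduced cells, by small amounts, and none passed the test. The median change was -0.17 on the log2 scale, which is a difference of -11.1% in signal, and the changes lay between -0.37 and -0.02. Of the 40 genes, 0 were called lower and 0 higher (limma, Benjamini-Hochberg adjusted p under 0.05; lowest adjusted p = 0.884), against 0% of all probes called lower and 0.534% called higher. At an unadjusted p under 0.05 the count of lower members was also 0, against 2.74% of all probes. The standard error of a change was 0.15 at the median gene, close to the size of the median change itself. Over all named genes the median change was -0.00, with 25% of genes below -0.15 and 25% above 0.14, and 50.8% were below 0. These 40 genes were read on the same 6 arrays, so their shared sign is not 40 separate observations, and the direction was known when the list was drawn up.

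The mean signal of the 40 genes was 9.28, 9.01 and 9.09 on the induced arrays, and 9.44, 9.21 and 9.25 on the uninduced arrays. The groups overlapped, because induced replicate 1, from the run of 2, lay above both uninduced arrays of the run of 4. Within each run every induced array was below every uninduced array. The median change was -0.15 in the run of 2 and -0.19 in the run of 4, where all named genes had medians of 0.01 and -0.02. In both runs 38 of the 40 genes were lower, against 31.7% of named genes. All 3 induced arrays lay below all 3 uninduced arrays for 7 genes (17.5%), against 7.98% of named genes, and no gene had the groups apart in the other direction, against 6.40%. In the run of 4 alone, both induced arrays lay below both uninduced arrays for 30 genes, against 27.1% of named genes. With the run as a block in the fit the median standard error was 0.09, and 0 of the 40 were called lower (lowest adjusted p = 0.232), against 0.0338% of all probes. At an unadjusted p under 0.05 that fit had 8 members lower (20.0%), against 8.49% of all probes.

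**Figure D1:**
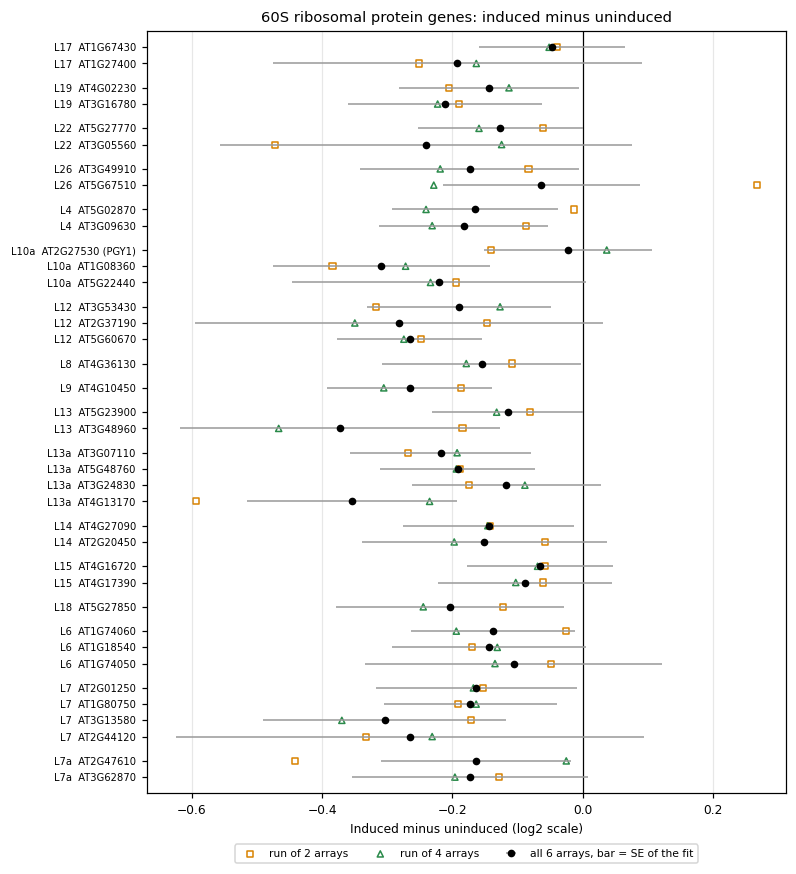
Induced minus uninduced signal on the log2 scale for 38 of the 40 genes, grouped by protein family (L17 for RPL17 and so on) and by place in the subunit (tunnel and exit at the top, active centre and stalks in the middle, body below). Black points are the change over 6 arrays with its standard error, squares the change in the run of 2 arrays and triangles that in the run of 4. All black points lie left of 0, and AT5G67510 in the run of 2 (0.27) and PGY1 (AT2G27530) in the run of 4 (0.04) are the values right of 0.

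RPL4 and RPL17 reach into the tunnel through which the new protein leaves the subunit, and RPL19, RPL22 and RPL26 lie around its mouth. These 5 families had 10 measured genes, and 9 of them were lower in both runs, with a median change of -0.17. The RPL4 pair gave close values. AT3G09630 had 9.68, 9.47 and 9.45 in induced cells, against 9.77, 9.71 and 9.67 in uninduced cells, a change of -0.18 ± 0.13 (SE). AT5G02870 had 10.05, 9.82 and 9.90 in induced cells, against 10.06, 10.05 and 10.15 in uninduced cells, a change of -0.17 ± 0.13. In both genes the run of 2 gave small differences (-0.09 and -0.01) and induced replicate 1 lay just above the lowest uninduced array, while the run of 4 gave -0.23 and -0.24.

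The RPL17 genes had the widest distance between paralogues of any family, and differed in their spread over arrays. AT1G67430 had 12.73, 12.76 and 12.77 in induced cells, against 12.77, 12.79 and 12.84 in uninduced cells. The 2 groups did not overlap, yet the change was only -0.05 ± 0.11 (SE). AT1G27400 had 8.63, 7.94 and 8.14 in induced cells, against 8.88, 8.12 and 8.29 in uninduced cells, a change of -0.19 ± 0.28, and its arrays sorted by run first, with both run of 2 values above the other 4. For RPL19, which also takes part in a bridge to the small subunit, AT4G02230 averaged 11.09 ± 0.12 in induced cells and 11.24 ± 0.12 in uninduced cells (SD, n = 3 each). AT3G16780 averaged 8.45 ± 0.16 in induced cells and 8.67 ± 0.12 in uninduced cells. The changes of this pair, -0.14 and -0.21, were each within 1.5 standard errors of 0.

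AT5G67510, 1 of the RPL26 genes, was the exception in direction between runs. It had 6.86, 6.56 and 6.52 in induced cells, against 6.59, 6.79 and 6.75 in uninduced cells, so it was higher in the run of 2 (0.27) and lower in the run of 4 (-0.23). Its paralogue AT3G49910 had 9.39, 9.01 and 9.30 in induced cells, against 9.48, 9.22 and 9.54 in uninduced cells, lower in both runs (-0.08 and -0.22). In the RPL22 pair, AT5G27770 averaged 7.67 ± 0.10 in induced cells and 7.79 ± 0.08 in uninduced cells (SD, n = 3 each). AT3G05560 had 6.75, 6.15 and 6.26 in induced cells, against 7.22, 6.24 and 6.42 in uninduced cells. For this dimmer RPL22 gene the change was -0.24 ± 0.32 (SE), and the run of 2 carried most of it (-0.47, against -0.12 in the run of 4).

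RPL8 lies near the site where peptide bonds form, RPL9 near the site where the elongation factors bind, RPL12 at the base of the stalk that recruits those factors, and RPL10a forms the mobile stalk beside which spent tRNA leaves. These 4 families had 8 measured genes with a median change of -0.24, and 7 were lower in both runs. RPL12 held the dimmest gene of the 40, AT5G60670, with 4.83, 4.83 and 4.82 in induced cells, against 5.08, 5.07 and 5.12 in uninduced cells. Its 6 values did not follow the runs, its groups did not overlap, and its change of -0.27 ± 0.11 (SE, limma adjusted p = 0.884) was the nearest to the threshold among the 40. With the run as a block its adjusted p was 0.232. It was the only 1 of the 40 below the median of all probes, and it still lay above the 5th percentile of every array (2.39 to 3.19 on induced and 2.42 to 3.12 on uninduced arrays).

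The other RPL12 genes were brighter. AT2G37190 had 6.88, 6.06 and 6.03 in induced cells, against 7.02, 6.45 and 6.35 in uninduced cells, with a change of -0.28 ± 0.31 (SE). Here the distance between the runs (0.73) was larger than that between the groups. AT3G53430 had 8.34, 8.29 and 8.43 in induced cells, against 8.66, 8.35 and 8.62 in uninduced cells, with a change of -0.19 ± 0.14. AT4G10450, the RPL9 gene measured alone, had 6.94, 6.74 and 6.79 in induced cells, against 7.13, 7.01 and 7.13 in uninduced cells. Its groups did not overlap, and the change was -0.27 ± 0.13 (limma adjusted p = 0.946). The RPL8 gene AT4G36130 averaged 7.97 ± 0.17 in induced cells and 8.13 ± 0.13 in uninduced cells (SD, n = 3 each).

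RPL10a had both the third largest change and the smallest. PGY1 (AT2G27530), whose mutation alters leaf polarity in plants that also lack AS1, a leaf patterning factor, had 8.02, 7.93 and 8.07 in induced cells, against 8.16, 7.95 and 7.98 in uninduced cells. The change was -0.02 ± 0.13 (SE), lower in the run of 2 (-0.14) and higher in the run of 4 (0.04). Centring each array on its median turned the PGY1 value to 0.00 on the positive side. AT1G08360 had 7.73, 7.43 and 7.61 in induced cells, against 8.12, 7.71 and 7.86 in uninduced cells, a change of -0.31 ± 0.17. AT5G22440 had 7.58, 7.08 and 7.06 in induced cells, against 7.78, 7.29 and 7.31 in uninduced cells, a change of -0.22 ± 0.23. AT1G08360 and AT5G22440 were lower in both runs.

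**Figure D2:**
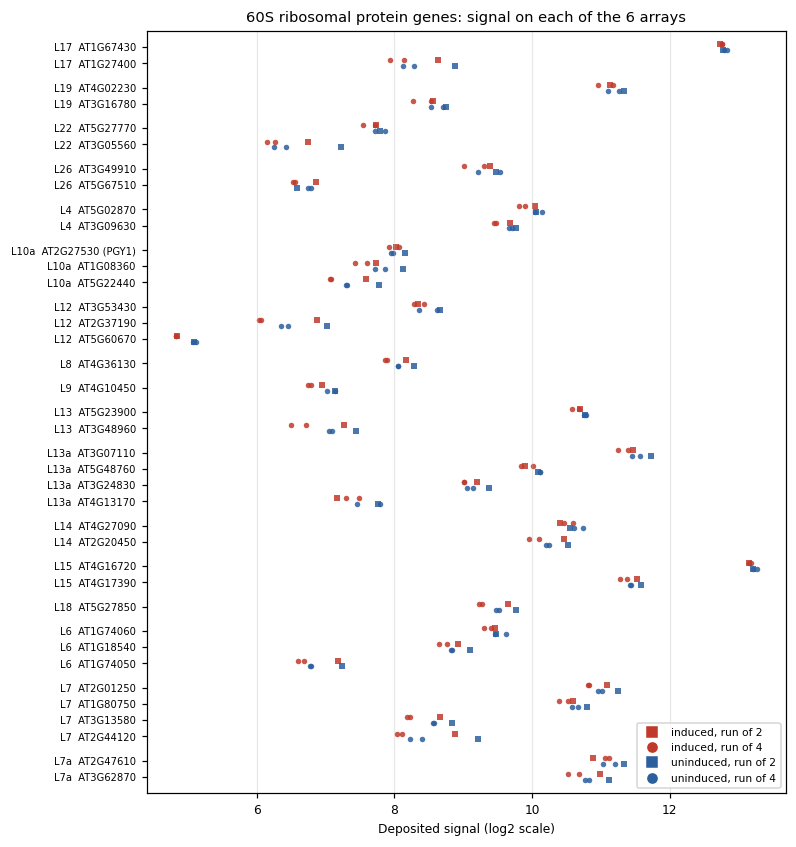
Deposited signal (log2 scale) of 38 of the 40 genes on each array, with induced arrays in red above uninduced arrays in blue. Squares are the run of 2 arrays and circles the run of 4, and genes of 1 family stand together from the brightest to the dimmest. AT4G16720 (RPL15) and AT1G67430 (RPL17) lie at the right with almost no spread, AT5G60670 (RPL12) lies at the left, and in AT2G44120 (RPL7) the squares stand clear of the circles.

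The body of the subunit was represented by families such as RPL6, RPL7, RPL7a, RPL13, RPL13a, RPL14, RPL15 and RPL18, whose proteins bind the large ribosomal RNA and hold its folds together. All 22 measured genes were lower in both runs, with a median change of -0.16. RPL13 held the largest change of the 40. AT3G48960 had 7.26, 6.72 and 6.49 in induced cells, against 7.44, 7.09 and 7.05 in uninduced cells, a change of -0.37 ± 0.24 (SE), or -22.8% in signal. Within each run its induced arrays were the lower ones, but over all arrays the groups overlapped. Its paralogue AT5G23900 had 10.70, 10.58 and 10.69 in induced cells, against 10.78, 10.78 and 10.75 in uninduced cells, with groups that did not overlap and a change of -0.12 ± 0.12.

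RPL13a was measured at all 4 listed genes. AT4G13170 had 7.17, 7.29 and 7.48 in induced cells, against 7.77, 7.79 and 7.46 in uninduced cells. It gave the second largest change, -0.35 ± 0.16 (SE), and 1 uninduced array lay among the induced ones. AT5G48760 had 9.90, 9.84 and 10.01 in induced cells, against 10.09, 10.12 and 10.11 in uninduced cells. The groups did not overlap and the change was nearly the same in both runs (-0.19 and -0.19). AT3G07110, the brightest of the family, averaged 11.37 ± 0.11 in induced cells and 11.59 ± 0.14 in uninduced cells (SD, n = 3 each). AT3G24830 averaged 9.07 ± 0.11 in induced cells and 9.19 ± 0.16 in uninduced cells.

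RPL7 was also measured at all 4 listed genes. AT3G13580 had 8.66, 8.22 and 8.18 in induced cells, against 8.83, 8.58 and 8.56 in uninduced cells, a change of -0.30 ± 0.19 (SE). With the run as a block and a variance trend with robust estimation, a combination added after the data were seen, this gene had the lowest adjusted p of the 40 (0.0793), and 0 of the 40 were called lower, against 1.10% of all probes. AT2G44120 had 8.88, 8.04 and 8.11 in induced cells, against 9.21, 8.22 and 8.40 in uninduced cells. It had the largest distance between the runs of all 40 (0.85), larger than its change between the groups (-0.27 ± 0.36). The brighter RPL7 genes AT2G01250 and AT1G80750 gave -0.16 ± 0.15 and -0.17 ± 0.13, and were lower in both runs.

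In RPL7a, AT2G47610 had 10.89, 11.12 and 11.06 in induced cells, against 11.33, 11.21 and 11.03 in uninduced cells. Induced replicate 1 was the lowest of the 6 and uninduced replicate 1 the highest, so the run of 2 gave -0.44 and the run of 4 -0.03. AT3G62870 averaged 10.73 ± 0.23 in induced cells and 10.91 ± 0.18 in uninduced cells (SD, n = 3 each), lower in both runs (-0.13 and -0.20). In RPL6, AT1G74060 had 9.45, 9.30 and 9.41 in induced cells, against 9.48, 9.63 and 9.46 in uninduced cells, and the groups did not overlap. AT1G18540 averaged 8.78 ± 0.14 in induced cells and 8.92 ± 0.15 in uninduced cells, and AT1G74050 averaged 6.82 ± 0.31 in induced cells and 6.93 ± 0.26 in uninduced cells. AT1G74060 and AT1G74050 are neighbours on chromosome 1 with no gene of the RefSeq table between them, and their changes were -0.14 and -0.11.

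RPL15, whose protein is buried among folds of the ribosomal RNA, had the brightest gene of the 40. AT4G16720 had 13.15, 13.19 and 13.15 in induced cells, against 13.21, 13.27 and 13.21 in uninduced cells. The groups did not overlap, and the change was -0.07 ± 0.11 (SE). AT4G17390 gave -0.09 ± 0.13, and the RPL14 genes AT4G27090 and AT2G20450 gave -0.14 ± 0.13 and -0.15 ± 0.19. AT5G27850, the RPL18 gene measured among those listed, averaged 9.39 ± 0.23 in induced cells and 9.59 ± 0.16 in uninduced cells (SD, n = 3 each).

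Probe signals of different genes also depend on the probes, whose sequences were not used here, so the distances between paralogues are array signals and not ratios of transcripts. How far a probe also reads a near-identical paralogue was not analysed. In 12 of the 15 families with at least 2 measured genes, the order of the paralogues was the same on all 6 arrays. The distance between the brightest and dimmest gene of a family, by mean signal, ranged from 0.29 in RPL7a to 4.44 in RPL17. It exceeded 2 log2 units in 8 families. Only measured genes of the list of 59 count here, and paralogues outside that list were not included. In RPL19 the distance varied little over arrays, and AT4G02230 exceeded AT3G16780 by 2.64 ± 0.06 in induced cells and 2.57 ± 0.01 in uninduced cells (SD, n = 3 each). The 3 families whose order differed between arrays were RPL7, RPL7a and RPL14. AT4G27090 exceeded AT2G20450 (both RPL14) by -0.06, 0.51 and 0.50 in induced cells, against 0.02, 0.40 and 0.50 in uninduced cells. The small gaps were those of the run of 2, in both groups. AT2G47610 exceeded AT3G62870 (both RPL7a) by -0.10, 0.60 and 0.37 in induced cells, against 0.22, 0.43 and 0.19 in uninduced cells. AT3G13580 exceeded AT2G44120 (both RPL7) by -0.22, 0.18 and 0.07 in induced cells, against -0.38, 0.36 and 0.16 in uninduced cells. In each of these 3 pairs of neighbours in the order the sign of the gap differed between arrays, and its size was not tested.

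A gap between 2 genes on the same array is unaffected by adding a constant to that array. Over the 31 pairs of paralogues the gap differed between induced and uninduced cells by 0.09 at the median and 0.29 at most. With 3 arrays against 3 an exact permutation test (two-sided) cannot give a p under 0.1, so no pair can pass a threshold of 0.05. The groups did not overlap for 2 of the 31 pairs (6.45%), each at that smallest p of 0.1, which 10% of the arrangements of the 6 arrays give. Nothing is read from so few pairs, and the 2 are described only because their groups were apart. PGY1 exceeded AT1G08360 (both RPL10a) by 0.28, 0.50 and 0.46 in induced cells, against 0.04, 0.23 and 0.11 in uninduced cells, a wider gap by 0.29 that was seen in both runs (0.24 and 0.31). AT2G01250 exceeded AT3G13580 (both RPL7) by 2.43, 2.60 and 2.64 in induced cells, against 2.42, 2.43 and 2.40 in uninduced cells, a gap wider by 0.14 that came from the run of 4 (0.20, against 0.02 in the run of 2). The gap differed in the same direction in both runs for 14 of the 31 pairs and not for the others.

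**Figure D3:**
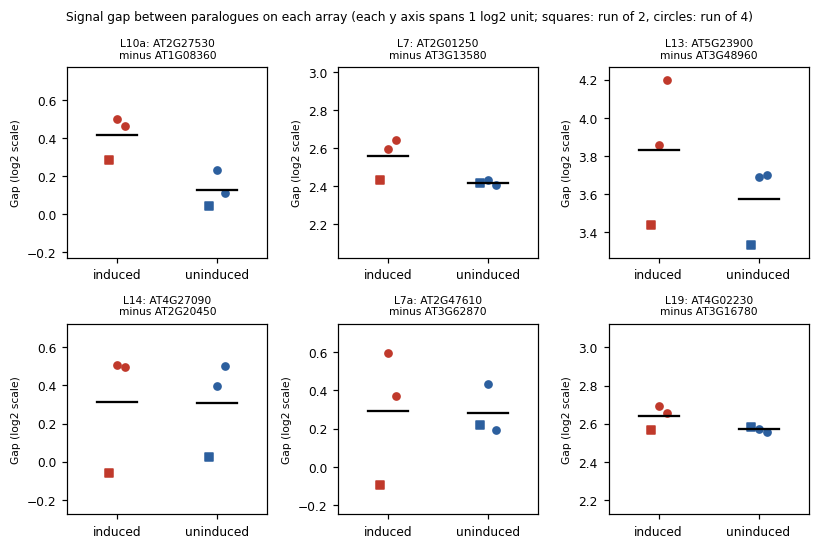
Signal gap (log2 scale) between paralogues on each array, with induced arrays left of uninduced arrays, the mean of each group as a bar, squares for the run of 2 and circles for the run of 4. For PGY1 (AT2G27530) minus AT1G08360 all induced gaps (0.28 to 0.50) lie above all uninduced gaps (0.04 to 0.23), while the RPL14 and RPL7a pairs overlap and the RPL19 pair stays between 2.56 and 2.69.

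Dimmer genes of the list gave larger changes than brighter ones. The 8 genes with a mean signal of 11 or more had a median change of -0.09, the 13 between 9 and 11 had -0.17, the 13 between 7 and 9 had -0.21, and the 6 under 7 had -0.25. Across the 40 genes the signal level and the change had a Pearson r of 0.53 and a Spearman rho of 0.49, as a description over genes that share the same arrays. Over all named genes the medians in the same bins were -0.02, -0.03, -0.05 and 0.02, with r at -0.07. The distance between the runs also followed the level. The run of 2 exceeded the run of 4 by 0.12, 0.16, 0.26 and 0.31 at the median gene of those bins, from the brightest to the dimmest. In all named genes the same distances were 0.15, 0.13, 0.18 and 0.64. For 20 of the 40 genes the distance between the runs was larger than the change between the groups, and the part of the array scale in the relation of change to level was not tested.

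**Figure D4:**
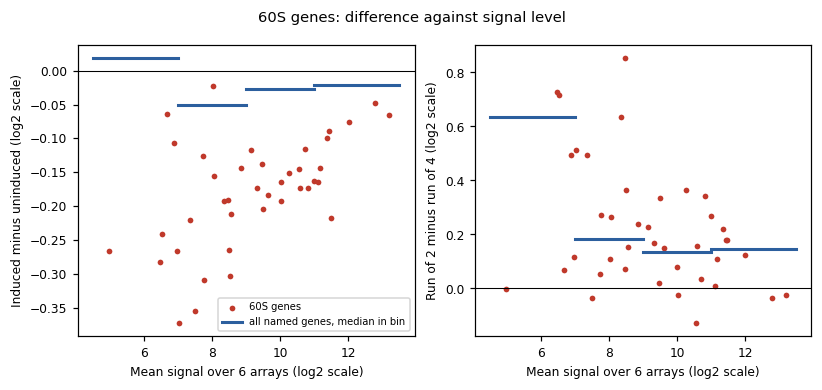
Induced minus uninduced signal (left panel) and run of 2 minus run of 4 (right panel), both on the log2 scale, against the mean signal over 6 arrays. Red points are the 40 genes and blue bars the medians of all named genes with signals under 7, from 7 to 9, from 9 to 11 and of 11 or more. The points of the left panel lie closest to 0 at the bright end, and those of the right panel are most scattered below a signal of 9.

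Other genes of protein synthesis lay on the same side. The lists below were written by locus from the published nomenclature. Of 72 listed genes for the other cytosolic 60S proteins, including the stalk proteins, 50 were measured and 46 were below 0, with a median change of -0.14. Of 94 listed 40S genes 57 were measured and 55 were below 0, with a median of -0.15. No gene of either list was called in either direction (limma). Changes of the named 60S genes were -0.44 for AT1G02830, -0.43 for AT3G28900 and 0.42 for AT2G47570, and those of the 40S genes were -0.62 for AT1G23410, -0.49 for XW6 (AT1G58380) and -0.45 for AT2G39590. The standard errors of these 6 changes lay between 0.20 and 0.43. AT1G02830, AT2G47570 and AT1G23410 were dim, with mean signals of 3.29, 4.33 and 5.07, below the median of all probes.

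Factors that assemble the 60S subunit in the nucleolus had a median further below 0 than the ribosomal proteins, a difference that was not tested. Of 41 listed, 17 were measured, all 17 were below 0, and the median change was -0.29 (-0.29 in the run of 2 and -0.32 in the run of 4). The induced arrays lay below the uninduced arrays without overlap for 14 of the 17, against 7.98% of named genes. RBL (REBELOTE, AT3G55510), a nucleolar protein related to the yeast export factor Noc2, averaged 9.38 in induced cells and 9.86 in uninduced cells, a change of -0.48 ± 0.16 (SE, limma adjusted p = 0.755). AT4G26600, which codes for a predicted RNA methyltransferase of the NOP2 family, gave -0.46 ± 0.13, and AT1G79150, related to yeast Noc3, gave -0.42 ± 0.12. None was called lower. With the run as a block, a variance trend and robust estimation, a combination added after the data were seen, 7 of the 17 and 0 of the 40 ribosomal protein genes were called lower, against 1.10% of all probes. Of 16 listed elongation genes, 6 were measured and all were below 0 with a median of -0.12. AT5G12110, a subunit of the exchange factor of elongation factor 1, had the largest change of that list, -0.96 ± 0.31 (-1.64 in the run of 2 and -0.61 in the run of 4), while AT1G09640 and AT3G12915 gave -0.15 ± 0.14 and -0.14 ± 0.18. Of 24 listed plastid 50S genes, 7 were measured and 6 were below 0 with a median of -0.24, with AT4G01310 at -0.39 ± 0.15, AT2G43030 at -0.30 ± 0.26 and AT1G29070 at -0.25 ± 0.15.

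Markers of dividing cells were on the same side as the ribosomal protein genes. Of 12 listed, 5 were measured, namely the kinesins AT5G60930 and AT3G44050, PRL, which belongs to the helicase that opens DNA for replication, and the mitotic kinases AUR2 and AUR1. All 5 were below 0, against 50.8% of named genes, and all 5 had groups that did not overlap, against 7.98% of named genes. Their median change was -0.36. The median signal of the 5 lay between 8.05 and 8.09 on induced arrays and between 8.44 and 8.57 on uninduced arrays, and no marker was at 0. AT5G60930 gave -0.47 ± 0.20, AT3G44050 -0.43 ± 0.12 and AUR2 -0.36 ± 0.14 (SE), and none was called (limma). Of 10 listed vessel markers 7 were measured, and in all 7 the induced arrays lay above the uninduced arrays. Of these, 6 were called higher (limma), against 0.534% of all probes. The largest changes were 5.64 ± 0.33 for AT5G51890 (a class III peroxidase), 5.04 ± 0.26 for TBL33 and 4.58 ± 0.17 for AT5G66390 (PRX72). The photosynthesis marker RCA, the 1 measured of 10, gave 0.10 ± 0.35 at a signal near 4.7, below the median of all probes. The part of a change in dividing or differentiating cells in the values of the ribosomal protein genes was not tested.

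**Figure D5:**
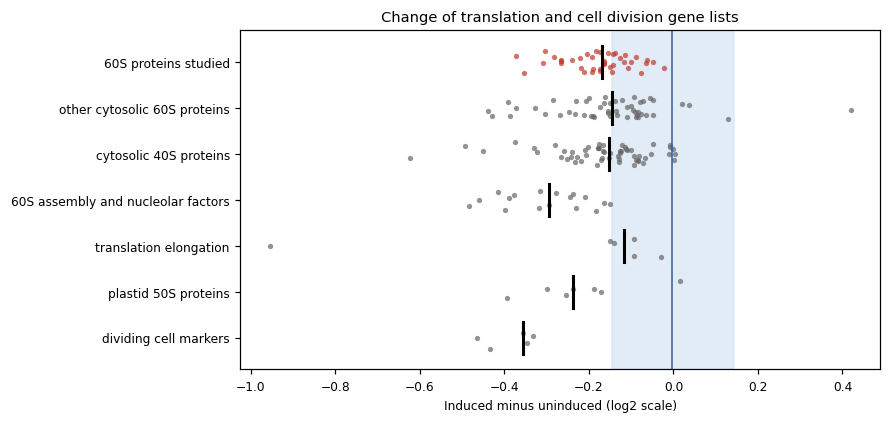
Induced minus uninduced signal (log2 scale) of each measured gene in the 40 ribosomal protein genes (red, top row) and in 6 other lists (grey), with the median of each list as a black bar. The blue line and band are the median and the middle 50% of all named genes, from -0.15 to 0.14. The medians run from -0.12 for elongation genes to -0.36 for markers of dividing cells, with the 40 genes at -0.17.

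After each array was centred on its median, the mean of the 40 genes stood 3.13, 3.60 and 3.62 above that median on the induced arrays and 3.36, 3.74 and 3.70 on the uninduced arrays. These centred means differed more between the runs (3.13 and 3.36 in the smaller run, 3.60 to 3.74 in the larger) than between groups within a run. The array medians subtracted were higher in the smaller run. A single member correlated with the mean of the other 39 at a median r of 0.96. Across the 6 arrays 32 of the 40 had r over 0.9. How far r reflects the runs rather than a shared change between the groups was not tested. The lowest values were those of AT2G44120 (-0.27), AT2G37190 (0.03) and AT3G05560 (0.11), genes with wide distances between the runs. Outside the list, 3066 of 16508 named genes also had r over 0.9, and the 3 highest were AT4G18465 (0.999), AT3G59800 (0.999) and AT4G16970 (0.997), a description over 6 arrays that share runs and groups. Before centring, AT4G18465 had 9.29, 9.14 and 9.26 in induced cells, against 9.55, 9.42 and 9.42 in uninduced cells. Its uncentred values and those of AT4G16970 (8.52, 8.52 and 8.53 in induced cells, against 8.79, 8.76 and 8.80 in uninduced cells) did not overlap between the groups. Those of AT3G59800 (7.40, 7.09 and 7.19 in induced cells, against 7.55, 7.30 and 7.32 in uninduced cells) did overlap.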

How the data were processed

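Biotin-labelled RNA was hybridised to AraGene arrays, per the labels. The submitters' processing notes name Affymetrix Expression Console 1.3 as the tool behind the authors' values, and the range of the deposited values is that of log2 signals. No source used here gives the summarisation, background correction, log base or normalization. Groups come from the stimulation in the labels, and replicate numbers only name samples. Gene names come from the platform's probe annotation and a RefSeq gene table (TAIR10.1). Where a gene had more than 1 probe, that with the highest mean was used. The protein families and list memberships were written by hand and could not be checked against that table, which holds no product names.

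All 38408 probes were fitted with limma 3.58.1 in R 4.3.3 (lmFit and eBayes, no trend, not robust), with Benjamini-Hochberg adjustment over all probes and a threshold of 0.05. The procedure was tested on simulated data. Paralogue gaps were compared with exact permutation tests (SciPy 1.17.1). Members and lists were chosen with earlier results of these data known. Members named in full are those with the 8 largest changes, the brightest and dimmest of each family, and those with older gene names where measured, and up to 3 genes by size of change are named per other list. Any other member named was chosen after its values were seen. Alternatives are given in the closing section. Promoter motifs were planned but not analysed here, and no sequence was used. Of the 40 genes, 2 are counted in the totals but are not reported by name here.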

Additional observations from a re-analysis of the deposited data

How the results depend on the processing

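The counts and median of the 40 genes, each of their changes, and the counts and medians of the other lists were recomputed under 14 planned settings (quantile normalization, array weights, a variance trend plus robust estimation, dropping the lowest 25% of probes, median centring of each array, the array-number run as a block, the run of 4 arrays alone, the mean of a gene's probes, and leaving out each of the 6 arrays) and 3 added after the data were seen (the block with quantile normalization, with the trend and with centring). Under all 17, 0 of the 40 genes passed the threshold. The mean of a gene's probes changed nothing, since each member has 1 probe, and was not run for the other lists. Paralogue gaps, their order and exact tests, and the relation of change to level were not recomputed. The median change of the 40 ranged from -0.25 to -0.10 over the arrays left out, lowest without induced replicate 1 and highest without uninduced replicate 1, and the count below 0 from 35 to 40. Leaving out any array leaves the runs unbalanced between the groups, and the median of all probes also moved. It was -0.19 without induced replicate 1 and 0.11 without uninduced replicate 1. Without induced replicates 2 and 3 it was 0.07 and 0.06, and without uninduced replicates 2 and 3 it was -0.11 and -0.10. Of 680 recomputed member changes 11 were above 0, and PGY1 accounts for 6 of them. For the other lists, the median of the dividing cell markers was -0.44 with array weights and -0.43 in the run of 4 alone, that of the vessel markers 4.38 and 4.49, and 3.77 to 4.47 over the arrays left out, where 4 to 7 vessel markers were called. With the block, the variance trend and robust estimation together, 7 assembly factors, 1 of the 40S genes, 1 of the dividing cell markers and 1 of the other 60S genes were called lower, against 1.10% of all probes. Leaving out 1 array moved the medians of other lists to between -0.21 and -0.05 for the other 60S genes, -0.22 and -0.09 for the 40S genes, -0.18 and -0.05 for elongation, -0.38 and -0.15 for plastid 50S genes, and -0.14 and 0.41 for RCA, whose sign turned. The lowest of these were without induced replicate 1, and the highest without uninduced replicate 1, except that they were without induced replicate 2 for the other 60S and plastid 50S genes. The cause of these differences was not tested. The planned promoter motif shares were not run. No paired analysis was possible because the labels give no replicate numbers. The numbers used here are in accession order, and the block is the run of array numbers, not a pairing of samples. Signal over background was not analysed here, which limits dim genes such as AT5G60670.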

Other observations

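Of the listed genes without a probe of their own, 3 were on shared probes and 16 were not analysed here. The probes listed for both AT1G33120 and PGY2 (AT1G33140), RPL9 genes that are neighbours on chromosome 1, had 9.05, 8.89 and 8.94 in induced cells, against 9.12, 8.98 and 9.31 in uninduced cells on the brighter probe, and 7.25, 6.80 and 6.88 in induced cells, against 7.47, 6.87 and 6.88 in uninduced cells on the dimmer one. Their changes were -0.18 and -0.10. The probes listed for AT1G57660 and AT1G57860, RPL21 genes, gave -0.00 and -0.29, with signals near the median of all probes.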
